A study of Mus musculus with 6 samples.

Results

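NF-kB is a family of dimeric transcription factors held in check by inhibitor proteins. The genes described here are its 5 subunit genes, Nfkb1, Nfkb2, Rel, Rela and Relb, and 5 genes that restrain it, Nfkbia, Nfkbib, Nfkbie and Nfkbiz of the IkB family and Tnfaip3. They were taken by name through the Ensembl identifiers of the table, and all 10 of the 10, out of 41388 genes listed, were found and passed the filter on low values. The values come from RNA-Seq of Th9 cells, the IL-9-producing subset of CD4+ helper T cells, in 3 WT and 3 Irf1-/- libraries on the C57BL/6 background. The T cells came from spleen and lymph nodes of adult mice and were isolated by negative magnetic selection. By the study's methods they were naive CD4+ cells. For some experiments the study sorted CD44- CD62L+ cells by flow after the magnetic step, without saying whether RNA-Seq was among them. The cells were primed with antibodies to CD3 and CD28, which themselves engage NF-kB. Both groups were cultured for 2 days with IL-2, IL-4, TGF-β and recombinant rat IFN-γ, together with an antibody to mouse IFN-γ. Neither group therefore shows the genes without added IFN-γ. IRF1, an interferon-inducible transcription factor, was absent from the whole animal and not only from the T cells, and the WT mice were bought whereas the Irf1-/- mice were bred by the group. The question put to these genes was whether their transcripts differed between IFN-γ-treated Th9 cells with and without IRF1.

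In a resting T cell the NF-kB dimers are kept in the cytoplasm by IkB proteins such as IkBα, the product of Nfkbia. Signals from the antigen receptor, CD28 or receptors of the TNF family activate the IkB kinase complex, which marks IkB proteins for destruction and frees the dimers to enter the nucleus. In the non-canonical route, NF-kB-inducing kinase triggers the processing of the Nfkb2 product so that it can act with RelB. Nfkbia, Nfkbie, Tnfaip3, Nfkb1, Nfkb2, Rel and Relb are themselves known NF-kB target genes, which builds feedback into the pathway. c-Rel, the product of Rel, is known for its role in activated lymphocytes, where it promotes Il2 transcription and proliferation.

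Promoters of the members that differed between the genotypes are printed here because all of them hold a match to the kappaB consensus, the sequence that NF-kB dimers bind. The letters run 5′ to 3′ on the strand of the gene, from 250 bases before the start of the RefSeq transcript (GRCm38.p6) up to the last base before it, and capitals mark the bases of the match. The Rel window is chr11:23770970-23771219 on the minus strand, the Nfkbie window chr17:45555450-45555699 on the plus strand and the Nfkbia window chr12:55492648-55492897 on the minus strand.
Rel: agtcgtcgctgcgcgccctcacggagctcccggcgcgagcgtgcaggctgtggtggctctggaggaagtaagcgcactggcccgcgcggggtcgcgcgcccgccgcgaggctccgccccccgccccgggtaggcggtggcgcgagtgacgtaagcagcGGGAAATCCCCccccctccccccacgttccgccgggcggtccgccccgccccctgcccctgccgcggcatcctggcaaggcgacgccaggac
Nfkbie: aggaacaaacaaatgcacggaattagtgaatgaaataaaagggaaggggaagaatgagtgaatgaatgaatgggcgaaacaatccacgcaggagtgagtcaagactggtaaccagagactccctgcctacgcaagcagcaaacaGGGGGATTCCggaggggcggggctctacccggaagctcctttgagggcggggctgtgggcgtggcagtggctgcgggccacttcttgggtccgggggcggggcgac
Nfkbia: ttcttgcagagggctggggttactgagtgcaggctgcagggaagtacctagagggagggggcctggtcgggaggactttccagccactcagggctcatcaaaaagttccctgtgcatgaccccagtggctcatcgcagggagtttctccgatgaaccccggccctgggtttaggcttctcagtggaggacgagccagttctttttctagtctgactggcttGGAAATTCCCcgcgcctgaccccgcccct
The match began 92 bases before the start in Rel, where a pair of overlapping matches makes a run of capitals, 106 bases before it in Nfkbie and 29 bases before it in Nfkbia. Of the 10 members, 7 were found in the RefSeq promoter table, with 10 windows of 300 bases in all (250 before the start and 50 after it), and Nfkb1, Relb and Nfkbiz were not matched. The kappaB consensus, searched on both strands, was present in 7 of the 10 windows (a pair of Nfkb2 windows overlap and share a match), which belong to Rel, Nfkbie, Nfkbia, Nfkb2 and Tnfaip3, and in none of those of Rela and Nfkbib. Among all 32851 promoters of that length, 4.51% held it. The interferon-stimulated response element, written in its short form AANNGAAA, occurred in 1 of the 10 windows, in Tnfaip3, against 23.9% of all promoters. The STAT-binding element TTCNNNGAA occurred in 1 of the 10, in Nfkb2, against 8.3% of all promoters. No overlap between matches of different motifs was scored, and a match describes letters in a window and not binding.

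The libraries held between 5639788 and 13348230 reads on genes, with replicate 3 of both genotypes deepest, and 3 reads corresponded to a normalized count of 1.84 to 4.16, far below every value of the 10 genes. Values are normalized counts, gene read counts that the authors scaled by library with size factors. A gene is said to be called if limma's moderated test on log2(normalized count + 1) gave a Benjamini-Hochberg adjusted p below 0.05 over the 11379 genes with a mean of at least 10. The study describes the 3 samples of a genotype as independent biological samples, without saying whether each came from its own animal, and the p-values measure the spread between them. Irf1 itself was at 2660 to 2968 in WT and at 1476 to 1780 in Irf1-/- libraries, so that reads on the targeted gene were reduced and not lost. The libraries also differed in sex-linked transcripts. Among WT libraries, replicates 1 and 2 had the Y-linked gene Ddx3y at 849 and 939. It was at no more than 4.16 in the other 4 libraries, while Xist was at 16974 or more in those 4. The study's methods describe its mice as matched for sex and age. Because 1 WT and 3 Irf1-/- libraries share this feature, the members are also given for these 4 alone. T cell markers (Cd3d, Cd3e, Cd3g, Cd4 and Cd28) summed to 8763 to 8814 in WT and 8044 to 8495 in Irf1-/- libraries, with no overlap, and all 5 were well detected. Cd3e, a chain of the CD3 complex, was called lower (log2 fold change -0.30, limma adjusted p = 0.00535), and the part of this difference in the results was not tested. Of the 5 Th9 markers Spi1 was at or below 2.77 in every library. The other 4, Il9, Irf4, Gata3 and Batf, were detected throughout, and the 5 summed to 12410 to 15570 in WT and 17190 to 19470 in Irf1-/- libraries, with no overlap. Il9 (log2 fold change 1.75, limma adjusted p = 9.25e-06) and Batf (0.38, limma adjusted p = 0.00559) were called higher. The part of this difference in the results for the NF-kB genes was not tested. The B cell markers summed to 18.7 to 26.5 in WT and 21.7 to 37.4 in Irf1-/- libraries, with Pax5 at 0, and CD8 markers to 32.5 to 41.2 and 20.3 to 30.7. Myeloid markers summed to 51.2 to 178 in WT and 41.5 to 1029 in Irf1-/- libraries, the highest in Irf1-/- replicate 2. Dendritic cell markers summed to 22.1 to 47.4 in WT and 30.7 to 34.6 in Irf1-/- libraries, and NK cell markers to 0 in WT and at most 2.39 in Irf1-/- libraries, with Ncr1, Klrb1c and Klra8 at 0 throughout. The part of these other cells in the results was not tested. In bulk samples fewer cells of a type and less RNA per cell cannot be told apart.

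Rel, Nfkbie and Nfkbia were called lower in Irf1-/- Th9 cells, and no member was called higher. The mean of Rel fell to 65.8% and that of Nfkbie to 66.0% of the WT level, and Nfkbia to 77.1%. The 3 calls among 10 members compare with 12.4% of all genes tested that were called lower, and 11.4% were called higher. At an unadjusted p below 0.05, limma put 7 members lower and 0 higher, against 18.9% of all genes lower and 17.8% higher at that threshold. On the recovered reads, edgeR and DESeq2 each called 3 lower and 0 higher, where they called 12.5% and 9.32% of all genes lower. The log2 fold change was below 0 for 8 members, with a median of -0.20 against -0.004 over all genes. The groups did not overlap for 4 members, Rel, Nfkbie, Nfkb1 and Nfkbib, all lower in Irf1-/- libraries, where 20.9% of all genes were lower and 19.7% higher without overlap.

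**Figure D1:**
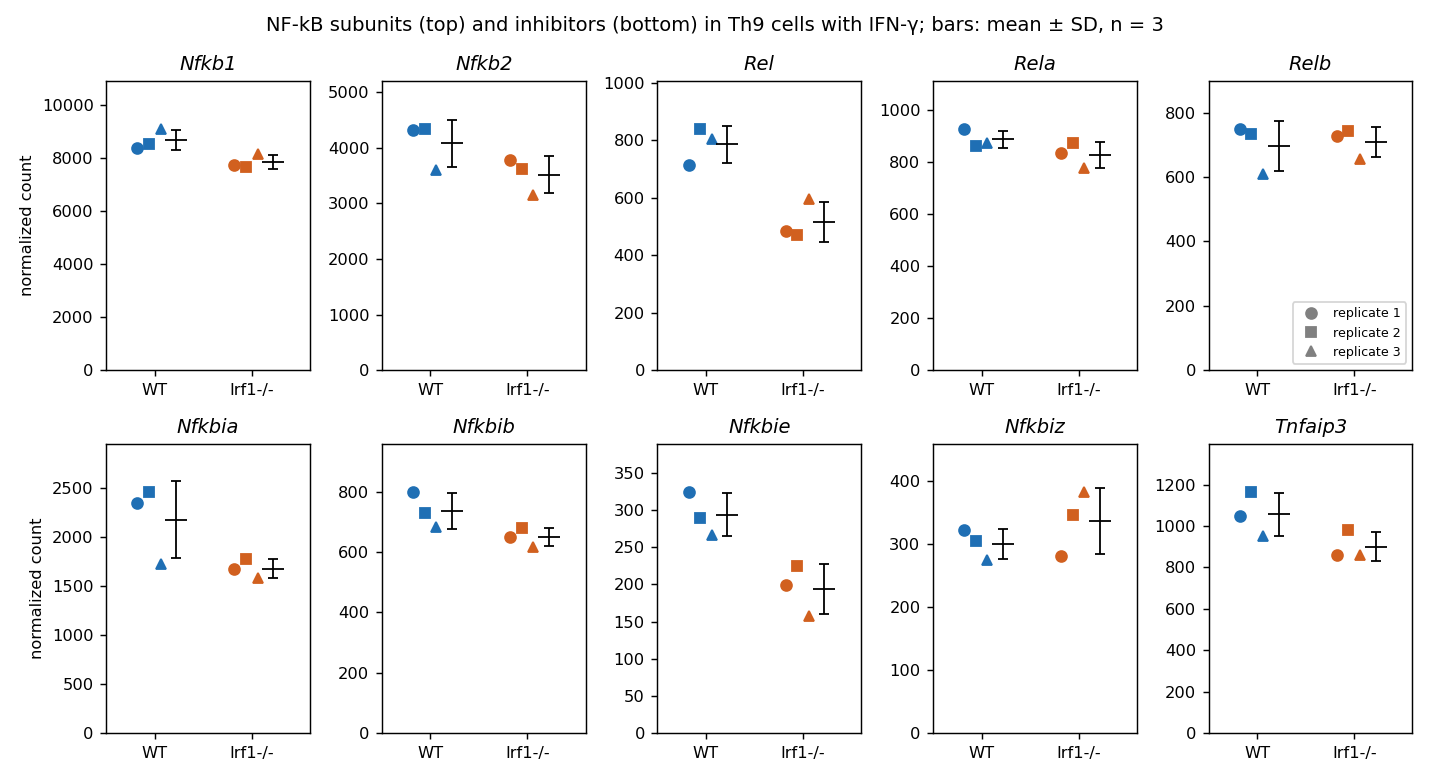
Normalized counts of the 10 genes in each library (vertical axes, each starting at 0), with subunits in the top row and inhibitors in the bottom row. Circles, squares and triangles are replicates 1, 2 and 3, blue points are WT and orange points Irf1-/-, and black bars give the mean ± SD (n = 3). The 3 Irf1-/- points of Rel lie between 470.1 and 596.3, below the lowest WT point of 712.6, whereas the WT triangle of Nfkbia at 1726 sits among the Irf1-/- points.

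Among the subunits, Rel showed the largest difference. Rel (ENSMUSG00000020275, chromosome 11 of GRCm38, 23736847 to 23770970 on the minus strand) encodes c-Rel, a subunit with its own transactivation domain. Its normalized count was 712.6, 837.9 and 805.2 in WT replicates 1 to 3 and 483.5, 470.1 and 596.3 in the Irf1-/- libraries. Every Irf1-/- library was below every WT library, and replicate 3 was the highest of the Irf1-/- libraries. These average 785 ± 65.0 and 517 ± 69.3 (SD, n = 3), which is a log2 fold change of -0.61 (SE 0.0981, 95% interval -0.82 to -0.39, limma adjusted p = 0.00170). Rel was called in all 18 other analyses that gave a test, which used other tools, filters, scalings, covariates or sets of libraries, and its log2 fold change ran from -0.72 to -0.54 when a single library was left out. It lies 30.0 Mb from Irf1 on the same chromosome.

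Rela and Relb encode the other subunits with a transactivation domain, RelA or p65 of the canonical route and RelB of the non-canonical one. Rela (ENSMUSG00000024927, chromosome 19, 5637483 to 5648130, plus strand) was at 926, 863 and 872 in WT and 836, 872 and 775 in Irf1-/- libraries. The ranges overlapped, and the log2 fold change of -0.10 had an interval from -0.24 to 0.04 (limma adjusted p = 0.297). Relb (ENSMUSG00000002983, chromosome 7, 19606217 to 19629438, minus strand) was at 748.8, 734.5 and 608.5 in WT and 728.3, 743.3 and 655.0 in Irf1-/- libraries. Replicate 3 was the lowest library in both genotypes, and the log2 fold change was 0.03 (interval -0.17 to 0.22, limma adjusted p = 0.856). Neither gene was called in any of the 18 other analyses.

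Nfkb1 and Nfkb2 encode the precursors p105 and p100, whose processing yields p50 and p52, subunits that lack a transactivation domain, and whose unprocessed forms act as inhibitors. Nfkb1 (ENSMUSG00000028163, chromosome 3, 135584655 to 135691547, minus strand) was at 8376, 8530 and 9076 in WT and 7743, 7647 and 8126 in Irf1-/- libraries. The groups did not overlap, but the difference was small, at 8661 ± 368 against 7839 ± 253 (SD, n = 3), with a log2 fold change of -0.14 (SE 0.0519, interval -0.26 to -0.03) that missed the threshold (limma adjusted p = 0.0688). Without Irf1-/- replicate 3 it passed (limma adjusted p = 0.0408), and without any other single library it did not (0.115 to 0.186). Nfkb2 (ENSMUSG00000025225, chromosome 19, 46304320 to 46312385, plus strand) was at 4313, 4333 and 3597 in WT and 3782, 3617 and 3153 in Irf1-/- libraries. WT replicate 3 fell within the Irf1-/- range, and the log2 fold change of -0.21 (SE 0.0855, interval -0.40 to -0.02) was not called (limma adjusted p = 0.0973). On the opposite strand the lncRNA AC114539.1 shares 531 bases with Nfkb2 exons, 11.6% of their length, and Psd shares 299 bases, or 6.52%. Because the strand setting of the counting is not given, reads there cannot be assigned with certainty.

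Among the inhibitors, Nfkbie differed most. Nfkbie (ENSMUSG00000023947, chromosome 17, 45555703 to 45563169, plus strand) encodes IkBε, which retains Rel and RelA dimers in the cytoplasm. It was at 324.5, 289.7 and 266.8 in WT and 199.4, 224.7 and 157.2 in Irf1-/- libraries, with no overlap. Replicate 3 was lowest in both genotypes. The mean was 294 ± 29.0 in WT and 194 ± 34.1 in Irf1-/- cells (SD, n = 3), and the log2 fold change was -0.61 (SE 0.132, interval -0.90 to -0.32, limma adjusted p = 0.00834). Like Rel it was called in all 18 other analyses, though not in the libraries with Xist alone, and its log2 fold change ran from -0.72 to -0.47 when a single library was left out.

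Nfkbia (ENSMUSG00000021025, chromosome 12, 55489410 to 55492647, minus strand), the gene of IkBα and a rapid feedback inhibitor, was at 2351, 2463 and 1726 in WT and 1679, 1781 and 1582 in Irf1-/- libraries. WT replicates 1 and 2 stood above all other libraries, and WT replicate 3 lay below Irf1-/- replicate 2. The means were 2180 ± 397 and 1681 ± 99.2 (SD, n = 3), with a log2 fold change of -0.36 (SE 0.114, interval -0.61 to -0.11, limma adjusted p = 0.0425). The call was lost when WT replicate 1 (limma adjusted p = 0.152), WT replicate 2 (0.168) or Irf1-/- replicate 1 (0.110), 2 (0.0774) or 3 (0.0802) was left out. It was kept without WT replicate 3, where the log2 fold change was -0.52 and the WT libraries were those with Y-linked transcripts.

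Nfkbib (ENSMUSG00000030595, chromosome 7, 28758251 to 28767512, minus strand), which encodes IkBβ, was at 800.0, 728.5 and 682.9 in WT and 651.9, 679.5 and 618.0 in Irf1-/- libraries. The groups did not overlap, though only by a narrow margin between WT replicate 3 and Irf1-/- replicate 2, and the log2 fold change of -0.18 (SE 0.0740, interval -0.34 to -0.02) was not called (limma adjusted p = 0.105). Its exons share 42 bases with Sirt2 and 314 with Ccer2 on the opposite strand. Ccer2 was at most at 1.19 and Sirt2 at 646 to 860.

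Tnfaip3 (ENSMUSG00000019850, chromosome 10, 19000910 to 19015657, minus strand) encodes A20, a ubiquitin-editing enzyme that ends NF-kB signalling upstream of the kinases. It was at 1050, 1165 and 953.4 in WT and 858.4, 981.9 and 860.8 in Irf1-/- libraries. Replicate 2 was highest in both genotypes, the groups overlapped, and the log2 fold change was -0.23 (SE 0.0833, interval -0.41 to -0.04, limma adjusted p = 0.0716). Nfkbiz (ENSMUSG00000035356, chromosome 16, 55811375 to 55838899, minus strand) encodes IkBζ, a nuclear protein that is induced by stimulation and can also act as a coactivator. It was at 322.0, 305.4 and 274.8 in WT and 280.6, 346.7 and 382.8 in Irf1-/- libraries. Replicate 3 was the lowest WT and the highest Irf1-/- library, and the log2 fold change of 0.15 (interval -0.10 to 0.41) was not called (limma adjusted p = 0.374).

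The members differed in how far they depended on which libraries were compared. In the 4 smaller libraries, replicates 1 and 2 of both genotypes, 7 members were called lower, against 18.3% of all genes, namely all but Rela, Relb and Nfkbiz. Without WT replicate 3 alone, 6 were called, against 12.5% of all genes, the exception among those 7 being Nfkb1. In both of these sets the WT libraries are the pair with Y-linked transcripts, so that genotype and sex-linked expression cannot be told apart in either. When the level of Y-linked transcripts entered the fit of all 6 libraries as a covariate, 3 members were called lower, against 12.3% of all genes. They were Rel (log2 fold change -0.67), Nfkbie (-0.45) and Nfkb1 (-0.20), whereas Nfkbia was at -0.11 (limma adjusted p = 0.234). In the 4 libraries with Xist, a choice made after seeing the data, 1 member was called, Rel at -0.65 (limma adjusted p = 0.0223), against 3.54% of all genes. There Nfkbie was at -0.47 (limma adjusted p = 0.173) and Nfkbia at -0.04 (limma adjusted p = 0.846). This fit sets 1 WT library against 3 and takes the lone library to vary like the others. The fit with the covariate has nearly the same limit, because Y-linked transcripts were high in WT replicates 1 and 2 alone. Its genotype difference rests mostly on WT replicate 3 against the Irf1-/- libraries.

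The pair of larger libraries, replicate 3 of each genotype, gives a value with no test. Its log2 fold change was -0.43 for Rel, -0.76 for Nfkbie and -0.13 for Nfkbia. For Nfkbiz it was 0.48, whereas the 4 smaller libraries gave -0.01. Rel and Nfkbie were thus below 0 under each of these choices of libraries, and the value for Nfkbia was -0.13 and -0.04 where WT replicate 3 was the only WT library.

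**Figure D2:**
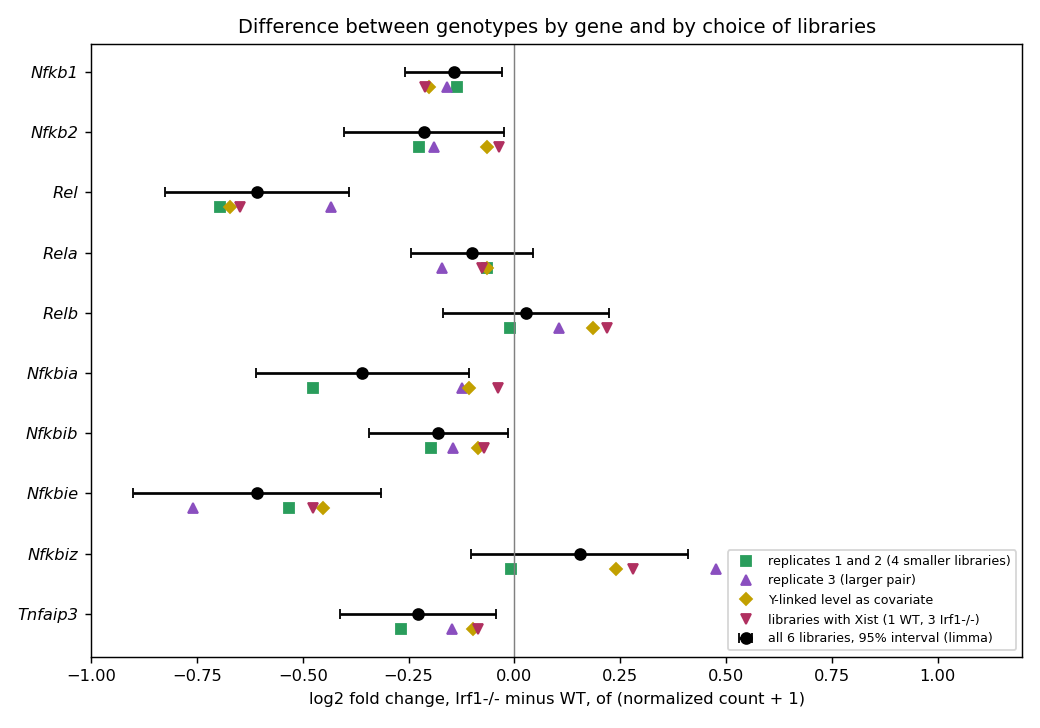
Log2 fold change of each gene, Irf1-/- minus WT, on the log2(normalized count + 1) scale (horizontal axis), with black points and bars for all 6 libraries and their 95% interval from limma. Coloured points give the same quantity for replicates 1 and 2, for replicate 3, after adding Y-linked transcripts as a covariate, and for the libraries with Xist. All points of Rel lie at or below -0.43 and all of Nfkbie at or below -0.45, and those of Nfkbia run from -0.48 to -0.04.

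Levels of different genes were compared as the normalized count per kb of exon, using exon lengths of the GENCODE M21 annotation. These lengths join all annotated exons of a gene, 12061 bases for Nfkb1 and 4584 for Nfkb2, and can exceed that of a single transcript. By mean count in WT, Nfkb1 (8661) was above Nfkb2 (4081) and Rel (785) above Relb (697). The order and shares below therefore rest on these lengths, and other lengths were not tried. Among subunits in WT cells the order was Nfkb2 (890 ± 91.5), Nfkb1 (718 ± 30.5), Rela (289 ± 11.1), Relb (180 ± 19.9) and Rel (105 ± 8.71 per kb, SD, n = 3). No neighbours in that order overlapped between libraries, though the margin between Nfkb2 and Nfkb1 was small, from 785 to 753. The order was the same in Irf1-/- cells, with Nfkb2 at 767 ± 71.2, Nfkb1 at 650 ± 21.0, Rela at 270 ± 16.0, Relb at 183 ± 12.2 and Rel at 69.2 ± 9.28 per kb. Nfkb2 and Nfkb1 made up 40.7% and 33.0% of the summed level per kb of the 5 subunits in WT and 39.5% and 33.6% in Irf1-/- libraries. Rel contributed 4.83% ± 0.472 of that sum in WT and 3.58% ± 0.610 in Irf1-/- libraries, and Relb 8.21% ± 0.615 and 9.41% ± 0.351 (SD, n = 3).

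Among the inhibitors in WT cells, Nfkbia was highest at 1354 ± 247 per kb, followed by Nfkbib (340 ± 27.2), Tnfaip3 (146 ± 14.7), Nfkbie (96.4 ± 9.54) and Nfkbiz (59.9 ± 4.77). Again no neighbours overlapped. In Irf1-/- cells the levels were 1044 ± 61.6, 300 ± 14.2, 125 ± 9.77, 63.6 ± 11.2 and 67.1 ± 10.3 per kb for the same genes. Nfkbie and Nfkbiz then overlapped and did not differ beyond their spread. The share of Nfkbia in the summed level of the 5 inhibitors was 67.6% ± 2.81 in WT and 65.3% ± 0.502 in Irf1-/- libraries. Nfkbie made up 4.87% ± 0.466 and 3.96% ± 0.492, and Nfkbiz 3.03% ± 0.256 and 4.21% ± 0.763 (SD, n = 3).

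**Figure D3:**
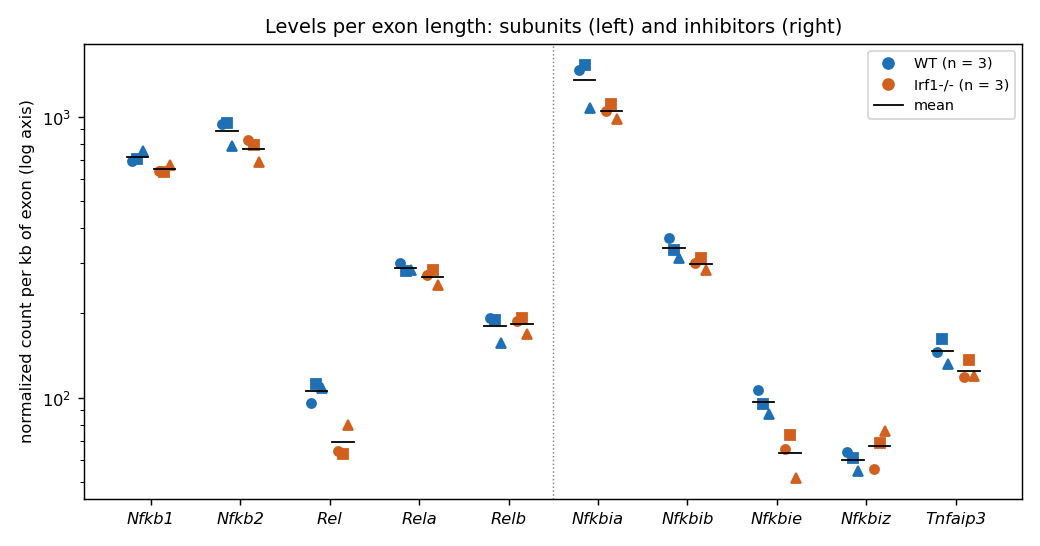
Normalized count per kb of exon on a log axis for the 5 subunits (left of the dotted line) and the 5 inhibitors (right), with WT libraries in blue, Irf1-/- libraries in orange and black lines at the mean. Point shapes mark replicates 1 (circle), 2 (square) and 3 (triangle). Nfkb2 and Nfkb1 lead the subunits and Rel is the lowest of them, at 105 in WT and 69.2 in Irf1-/- cells, and Nfkbia leads the inhibitors. The order of the subunits rests on exon lengths joined over all annotated transcripts.

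Ratios within a library do not depend on its size factor. The ratio of Rel to Rela counts was 0.770, 0.971 and 0.923 in WT and 0.579, 0.539 and 0.769 in Irf1-/- libraries. The groups did not overlap, by a margin of 0.7695 against 0.7692, and an exact two-sided permutation test gave p = 0.1, the smallest that 3 against 3 allows. The mean ratio of Rel to Relb was 1.14 ± 0.186 in WT and 0.736 ± 0.152 in Irf1-/- cells (SD, n = 3; exact permutation p = 0.1), and that of Rel to Nfkb1 0.0907 ± 0.00680 and 0.0658 ± 0.00661 (SD, n = 3; exact permutation p = 0.1). The ratio of Nfkbie to Nfkbib was 0.398 ± 0.00749 in WT and 0.297 ± 0.0389 in Irf1-/- cells (SD, n = 3; exact permutation p = 0.1). Nfkbie to Nfkbia overlapped between the genotypes, at 0.137 ± 0.0185 and 0.115 ± 0.0139 (SD, n = 3; exact permutation p = 0.3). These were 5 ratios, and with 0.1 as the smallest possible p none could pass 0.05 before or after adjustment.

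The other genes of the pathway were followed in 5 lists of 77 genes, of which 76 were tested. Of these 12 were called lower and 8 higher and 56 were not called, and the median log2 fold change was 0.01 against -0.004 over all genes. The share called lower was 15.8% and the share called higher 10.5%, near the 12.4% and 11.4% of all genes. The lower count was 5 without WT replicate 1 or WT replicate 2 and 7 without Irf1-/- replicate 1, where 7.23%, 7.24% and 8.82% of all genes were called lower. The higher count was 4 without WT replicate 1 or Irf1-/- replicate 2, where 7.15% and 7.14% of all genes were called higher.

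The IkB kinase list held 7 genes, and 2 were called lower, Ikbke and Map3k7 (28.6%, against 12.4% of all genes). None was called higher by limma, edgeR or DESeq2, which called 11.4%, 11.1% and 8.28% of all genes higher. None was higher at an unadjusted limma p below 0.05 either, where 17.8% of all genes were. Ikbke, a non-canonical IkB kinase that also acts in interferon induction, was at 876, 878 and 723 in WT and 482, 473 and 507 in Irf1-/- libraries, and these groups were well apart (log2 fold change -0.75, SE 0.0833, limma adjusted p = 1.72e-04). Map3k7, the gene of TAK1 that activates the IkB kinase complex, had a log2 fold change of -0.26 (limma adjusted p = 0.0149) and lost its call without WT replicate 1 (0.0764) or WT replicate 2 (0.0521). The core kinase genes Chuk and Ikbkb, the scaffold Ikbkg, and Map3k14, which encodes NF-kB-inducing kinase, were not called. The median of the list was -0.04.

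Among 16 other IkB family genes and negative regulators, 2 were called lower and 5 higher, with a median of 0.19. These are 12.5% and 31.2% of the list, against 12.4% and 11.4% of all genes. Cyld, a deubiquitinase that restrains the pathway, was at 1178, 1201 and 1166 in WT and 765, 865 and 872 in Irf1-/- libraries (log2 fold change -0.50, limma adjusted p = 4.33e-04). Nfkbid, the gene of the nuclear protein IkBNS, was lower by a log2 fold change of -0.28 (limma adjusted p = 0.0348). Tnip2 and Tnip1 encode partners of A20, and both were higher, with log2 fold changes of 0.50 (limma adjusted p = 0.00226) and 0.27 (0.0258). Tnip1 lies on chromosome 11, at 54910785 to 54962917, nearer to Irf1 than Rel does, and the part of this position in its difference was not tested. Nfkbil1 (0.41) and Rnf11 (0.32), a further A20 partner, were higher too, at limma adjusted p = 0.0202 and 0.0419, and Otulin (0.23), named here after its value was seen, was also called higher. Other genes whose products work with A20 in this list, Itch (log2 fold change -0.15), Tax1bp1 (-0.02) and Tnip3 (0.10), were not called. DESeq2 called 2 lower and 3 higher in this list, where it called 9.32% and 8.28% of all genes, and edgeR called 2 and 6, against 12.5% and 11.1%. Under DESeq2 Nfkbil1 (adjusted p = 0.0721) and Rnf11 (0.0913) were not called. Of these genes Cyld and Tnip2 kept their calls whichever library was left out. Tnip1 lost its call without WT replicate 1 (0.0508), Irf1-/- replicate 1 (0.0564) or Irf1-/- replicate 2 (0.0977), and Nfkbil1 without the same 3 libraries (0.0704, 0.0546 and 0.0865). Nfkbid was called only when WT replicate 3 was the library left out and Rnf11 only when Irf1-/- replicate 1 was, with adjusted p of 0.0519 to 0.144 and 0.0529 to 0.129 when any other single library was left out.

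Of 20 adaptors and ubiquitin ligases, Traf5 (log2 fold change -0.35, limma adjusted p = 0.0413) and Xiap (-0.24, limma adjusted p = 0.0417) were called lower and none higher by limma, edgeR or DESeq2, with 6 lower and 3 higher at an unadjusted p below 0.05, a threshold that 18.9% and 17.8% of all genes passed in these directions. DESeq2 called neither of the pair. Traf5 lost its call without any single library (0.0595 to 0.134), and Xiap without any but Irf1-/- replicate 3 (0.0635 to 0.142). The antigen receptor route held 9 genes, with Carmil2, the gene of a protein that links CD28 to NF-kB, called lower (-0.28, limma adjusted p = 0.0120) and Malt1, the gene of a paracaspase, called higher (0.25, limma adjusted p = 0.0110). The other 7, Bcl10 and Prkcq among them, were not called. Carmil2 lost its call without WT replicate 1 (0.0621) or WT replicate 2 (0.0589), and Malt1 without Irf1-/- replicate 1 (0.0547) or without a trend (0.0634). The medians of the adaptor and antigen receptor lists were -0.002 and -0.07. By limma 10.0% of the adaptor list were called lower and none higher, and 11.1% of the antigen receptor list in each direction. Over all genes 12.4% were called lower and 11.4% higher.

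Of 25 NF-kB target genes, 24 were tested and Tnfaip2 was too low. In all, 5 were called lower (20.8%, against 12.4% of all genes) and 2 higher (8.33%, against 11.4%), with a median of 0.01. Il2, the growth factor gene of activated T cells and a known c-Rel target, was at 240, 231 and 170 in WT and 68.1, 86.0 and 143 in Irf1-/- libraries. The 2 genotypes of replicate 3 were close to each other, with a log2 fold change of -0.24 in that pair against -1.15 in all 6 libraries (SE 0.237, limma adjusted p = 0.00620). Cflar, the gene of the caspase-8 inhibitor cFLIP, and Gadd45b fell by 0.50 and 0.47 on the log2 scale (limma adjusted p = 0.00118 and 5.38e-04), and Birc3 fell by 0.22 (limma adjusted p = 0.0179). Birc3 lost its call without WT replicate 1 (0.0767), WT replicate 2 (0.0623), Irf1-/- replicate 1 (0.0669) or Irf1-/- replicate 2 (0.0561), whereas Il2, Cflar, Gadd45b and Lta kept theirs whichever library was left out. In the libraries with Xist, Il2 was not called (log2 fold change -0.84, limma adjusted p = 0.155), while Cflar (0.0282), Gadd45b (0.0250) and Lta (0.00340) were. Bcl2l1 was called lower (log2 fold change -0.21) and Ier3 higher (1.30), both named after their values were seen. Lta, which encodes lymphotoxin α, was at 5427, 5438 and 6969 in WT and 9652, 9774 and 10119 in Irf1-/- libraries, with no overlap (log2 fold change 0.74, SE 0.0867, limma adjusted p = 2.56e-04). Listed target genes were called in both directions, as were all genes tested. Of the 24, 17 were not called, Tnf, Ltb, Icam1, Traf1 and Il2ra among them. When Y-linked transcripts entered the fit, Map3k7 (limma adjusted p = 0.0697), Carmil2 (0.0739), Traf5 (0.0837), Rnf11 (0.131) and Nfkbid (0.177) were no longer called among the pathway genes named by the rule.

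**Figure D4:**
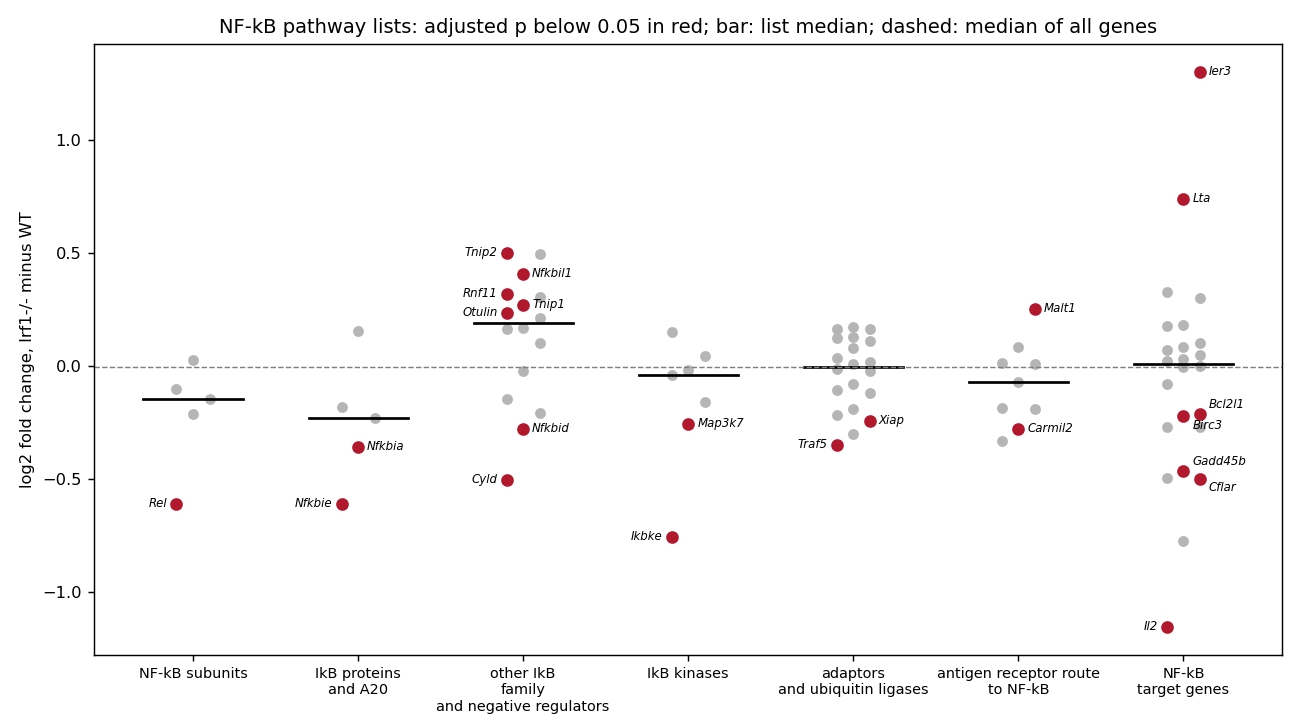
Log2 fold change of each tested gene, Irf1-/- minus WT (vertical axis), for the 5 subunits, the 5 inhibitors and the 5 other lists of the pathway. Red points had a limma adjusted p below 0.05 and are named, grey points did not, black bars are list medians and the dashed line is the median of all genes. Rel and Nfkbie share the same value of -0.61, and the other lists hold red points on both sides of the dashed line except the kinases and the adaptors.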

How the data were processed

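RNA-Seq values of 3 WT and 3 Irf1-/- libraries were analysed. The deposited signal is a normalized count: per the study's methods and processing notes, the authors mapped single-end poly(A) reads to GRCm38 (STAR 2.4.0b), summarised them per Ensembl gene (featureCounts) and scaled the counts by DESeq2 1.12.3 size factors. All values were whole multiples of a step per library within 0.01 reads, and 100% of non-zero values gave whole reads. Strand use and the treatment of reads that match several genes were not given in the sources used here. Of 41388 genes, 40254 had a symbol in the reference tables, and 11379 with a mean of at least 10 were tested with limma 3.58.1 in R 4.3.3 (eBayes with trend, log2 of the value plus a pseudocount of 1, Benjamini-Hochberg adjustment), giving a median SE of 0.0997. A log2 fold change on this scale understates the change of low genes. Because the values are normalized, edgeR 4.0.16 and DESeq2 1.42.0 ran on the recovered reads only as alternatives. The other settings changed the pseudocount (0.1 or 10), the filter (none, or 50 as the smallest mean), the scaling (quantile or TMM) and the trend (none), or added a replicate block, and others used 5 of the libraries, the 4 smaller or 2 larger ones, or Y-linked transcripts as a covariate. Scripts were tested on simulated data. The members and the lists were chosen with earlier results of these data known. Named were all members, of each other list up to 4 called genes per direction with the largest change and a mean of at least 100, and the 3 genes nearest in pattern to the most changed called member, of which 1 is not reported here. Exon lengths, joined over all annotated exons of a gene, and positions came from GENCODE M21 and promoters from RefSeq (GRCm38.p6). ChIP-Seq data were not used here.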

Additional observations from a re-analysis of the deposited data

How the results depend on the processing

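Rel and Nfkbie were called lower in all 18 other analyses with a test, and in the libraries with Xist, a choice made after seeing the data, Rel was the 1 member called. Nfkbia was called under 10 of the 18 and not under 8, with adjusted p up to 0.234. Rela, Relb and Nfkbiz were called under none. The number of members called lower was 3 in all 6 libraries (12.4% of all genes), 7 in the 4 smaller libraries (18.3%) and 1 in the libraries with Xist (3.54%). It ran from 2 to 6 when each library was left out, where 7.23% to 12.9% of all genes were called lower, and it was 2 without WT replicate 1 or 2 or Irf1-/- replicate 1 or 2 (7.23% to 8.82%). In the lists of other pathway genes, 12 were called lower and 8 higher. Without a trend these numbers were 7 and 4 (7.09% and 8.16% of all genes), in the 4 smaller libraries 19 and 14 (18.3% and 15.9%), in the libraries with Xist 4 and 4 (3.54% and 3.58%), and with each library left out 5 to 13 lower and 4 to 10 higher (7.23% to 12.9% and 7.07% to 12.1%). The cause of these changes was not tested. No called member, and no called pathway gene named by the rule, reversed its direction in these analyses; Otulin, Bcl2l1 and Ier3 were not followed there. Levels per kb moved by less than 1 SD when the median level of each library was set equal.

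With the replicate number as a block, 7 members were called lower, against 18.6% of all genes, and 20 pathway genes lower and 16 higher, against 18.6% and 16.6%. The deviations of same-numbered libraries from their group means correlated at 0.0922, 0.269 and 0.321 for replicates 1, 2 and 3, so the numbers are not established as pairs, although every library correlated best with its own number. The lowest value of any member was 157.2, well above the 4.16 that 3 reads make in the shallowest library.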

Other observations

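Rel and Nfkbie had the same log2 fold change of -0.61 to 2 decimals, and the rule for the most changed member took Nfkbie, although the difference between them is far below their standard errors. Among 8423 genes with a mean of at least 100, Tmem65 and Slfn2 were among the nearest to its pattern over the 6 libraries, with distances of 0.257 and 0.258 (Euclidean distance of log2(normalized count + 1) centred on the WT mean). Slfn2, a schlafen family gene, was at 2332, 2157 and 1614 in WT and 1350, 1435 and 1040 in Irf1-/- libraries, with replicate 3 lowest in both genotypes as in Nfkbie. Many genes share a genotype difference, and the likeness over 6 libraries is a description.

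Of the pathway genes, Ltb, Tnf, Lta and Nfkbil1 lie close together on chromosome 17, from 35194439 to 35235792 of GRCm38. Lta and Nfkbil1 were called higher in Irf1-/- cells, with log2 fold changes of 0.74 and 0.41. Tnf, between Ltb and Lta, was at 920 to 963 in WT and 818 to 985 in Irf1-/- libraries, and Ltb at 1576 to 1598 and 1514 to 1786, and neither was called. This cluster was noticed after the values were seen.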
